A study of Mus musculus with 13 samples.

Results

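Mast cells of the colon tumors were analysed in droplet-based single-cell RNA-seq of 10 colon tumors and 3 samples of adjacent mucosa. A cell was a member if it had at least 3 unique molecular identifiers (UMIs, counted RNA molecules) of Cpa3, at least 1 of Kit and Ms4a2 together, none of Cd3e or Cd79a, and at most 3 of the complement genes C1qa, C1qb and C1qc. These members, selected on the values of those genes, were 82 of the 118892 barcodes (of 137591 deposited) retained for reaching 500 UMIs and 200 genes with mitochondrial RNA under 25%. Of the 82, 78 came from tumors and 4 from mucosa. All tissue came from C57BL/6J mice of the genotype ApcMin/+; p16cis/cis on the supplemented diet, which is enriched in folate and its cofactors. ApcMin is a truncating allele of the tumor suppressor Apc, and p16cis is an engineered allele that draws DNA methylation to the p16 promoter. Every library shared this genotype and diet, so neither has a comparison here. By the animal codes, mouse A (24 weeks) gave 4 tumors, mouse B (23 weeks) 2 tumors and mouse C (20 weeks) 4 tumors, and each gave 1 mucosa sample. Age and mouse cannot be told apart. The mucosa was dissociated with EDTA and TrypLE and the tumors with a tumor dissociation kit, so tissue and protocol cannot be told apart either.

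Mast cells are long-lived granulated cells that depend on the receptor Kit and carry IgE on the high-affinity receptor built from Fcer1a, Ms4a2 and Fcer1g. Their granules hold heparin, histamine and proteases. In the mouse gut, mucosal mast cells lie in and below the epithelium and are known for the chymases Mcpt1 and Mcpt2, while connective tissue mast cells are known for Mcpt4, Cma1, the tryptases Tpsb2 and Tpsab1 and carboxypeptidase A (Cpa3). Basophils share the IgE receptor and histamine synthesis with mast cells but are marked by Mcpt8 and Prss34 and have little Kit.

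Total UMIs per library were 57221300 to 93157039 in tumors and 84883382 to 116133079 in mucosa. The epithelial adhesion gene Cdh1 was present at 84.2 to 143.5 CPM (UMIs scaled to the same library total) in tumors and 116.2 to 149.5 CPM in mucosa. For 7 of the 13 libraries the sex label did not match the data, since all 13 held Y-linked RNA at 103.8 to 126.2 CPM and Xist at 0.129 CPM or less. In the labels 2 of the 3 animal codes carry both sexes, and the codes, on which every value per mouse rests, were used as deposited. Any pair of libraries shared 10 to 39 retained barcode sequences (median 21), and no barcode was a member in more than 1 library, although 3 member barcodes were also retained in another library. No doublet caller was run.

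The label held for most of the members and not for all. Mcpt1 or Mcpt2 UMIs were found in 59 of the 82 members, in 1 case only 6 UMIs of both genes together and in the rest at least 20, with a median of 803 and a highest value of 5996. In the remaining 23 members neither gene had a single UMI. Genes with more pooled CPM in these cells than in the 59 included the chemokines Ccl4, Ccl3, Ccl6 and Ccl9, the histamine-forming enzyme Hdc, Gzmb and Mcpt8. As given below, Ccl4 and Ccl3 lay mostly in the 17 of them without Kit and Gzmb mostly in the 6 with Kit. All 23 are called here the members without Mcpt1 and Mcpt2. This division was made after the values were seen and is therefore given as a description with no test.

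**Figure D1:**
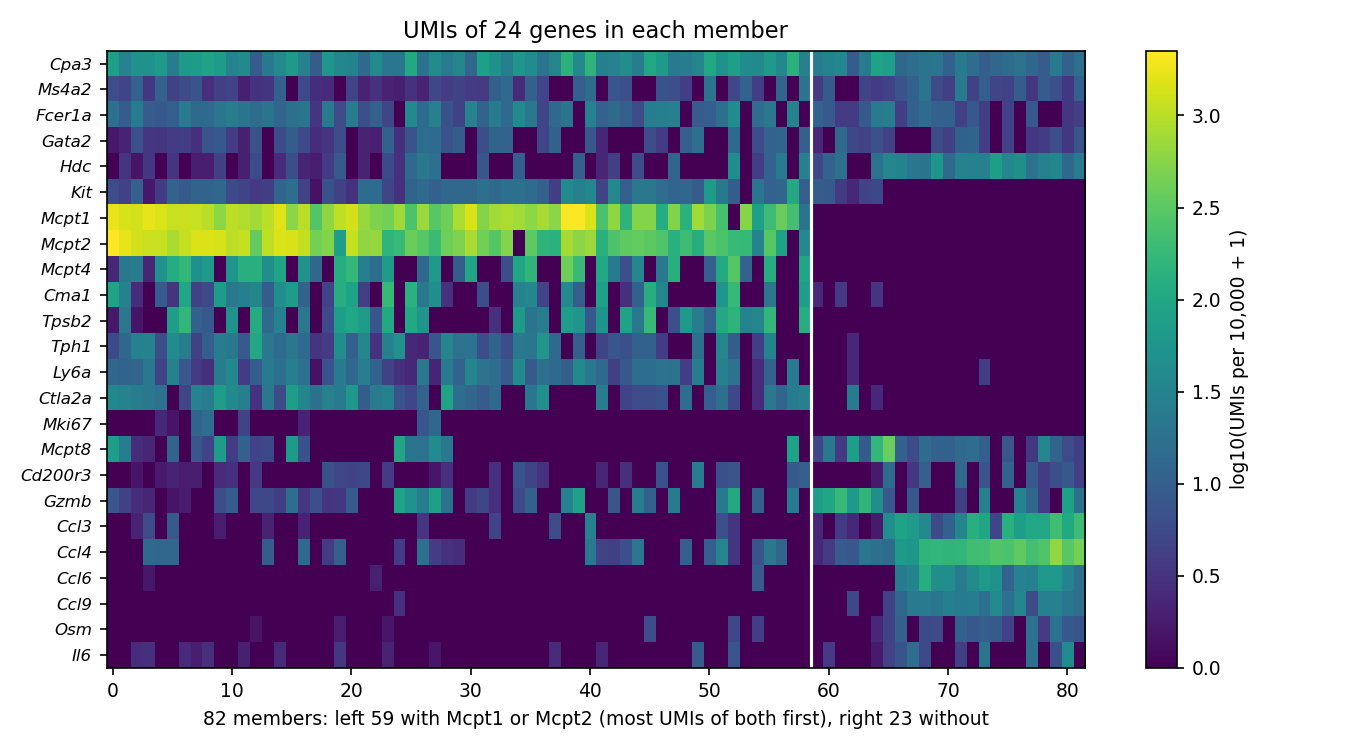
UMIs of 24 genes in each of the 82 members, as log10 of UMIs per 10000 plus 1 (color). Columns are cells, with the 59 members that had Mcpt1 or Mcpt2 on the left of the white line, ordered by the UMIs of both genes, and the 23 without on the right, where the first 6 had Kit UMIs and the other 17 had none.

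Genes used by the rule describe the members only. Cpa3, the granule carboxypeptidase, ranged from 3 to 157 UMIs per member (median 17). Kit was present in 58 of the 59 members with Mcpt1 or Mcpt2 and in 6 of the 23 without. Ms4a2, the beta chain of the IgE receptor, was present in 48 of the 59 and in 21 of the 23, and a member without Kit had to have it. At the lower edge of the rule, 6 cells had exactly 3 Cpa3 UMIs, of which 2 had Mcpt1 or Mcpt2, and 13 had exactly 4, of which 5 did. Just outside it, 13 cells with 2 Cpa3 UMIs met every other criterion, 5 of them with Mcpt1 or Mcpt2, and 16 cells had 1 Cpa3 UMI, 2 of them with Mcpt1 or Mcpt2. A further 7 cells with enough Cpa3 failed another criterion. The threshold thus cut through a continuous run of low values, and cells on both sides of it included both kinds.

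Promoter windows are shown for 3 genes that both kinds of member carried and 3 found almost only in the members with Mcpt1 or Mcpt2, as RefSeq gives them (assembly GRCm38.p6, 250 bases before to 50 after the start, 5′ to 3′ on the gene's strand). Of 23 genes looked up, 18 had an entry. Capitals mark AGATAA, a form of the GATA motif, or its complement TTATCT, and CATGTG, a form of the E-box, or its complement CACATG. Other forms were not searched. The marked motifs do not overlap in these windows. AGATAA on either strand is found in 11.2% of all 32851 windows of this length and CATGTG in 14.2%. The first set is shown because these genes were found in both kinds of member. The rule fixed this for Cpa3 and, in members without Kit, for Ms4a2, so only Fcer1a was free of the rule.
Cpa3 (chr3:20242132-20242431, minus strand): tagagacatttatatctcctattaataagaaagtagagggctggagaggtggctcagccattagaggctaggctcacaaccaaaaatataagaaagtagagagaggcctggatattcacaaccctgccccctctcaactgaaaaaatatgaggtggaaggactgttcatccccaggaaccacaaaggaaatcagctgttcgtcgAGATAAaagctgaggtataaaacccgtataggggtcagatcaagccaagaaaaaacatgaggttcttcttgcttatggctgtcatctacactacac
Ms4a2 (chr19:11623670-11623969, minus strand): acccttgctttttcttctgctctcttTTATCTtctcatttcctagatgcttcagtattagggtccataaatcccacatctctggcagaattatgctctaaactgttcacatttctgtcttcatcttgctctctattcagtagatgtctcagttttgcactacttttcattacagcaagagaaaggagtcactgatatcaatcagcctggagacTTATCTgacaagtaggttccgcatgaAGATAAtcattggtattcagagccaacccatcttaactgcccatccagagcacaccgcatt
Fcer1a (chr1:173227180-173227479, minus strand): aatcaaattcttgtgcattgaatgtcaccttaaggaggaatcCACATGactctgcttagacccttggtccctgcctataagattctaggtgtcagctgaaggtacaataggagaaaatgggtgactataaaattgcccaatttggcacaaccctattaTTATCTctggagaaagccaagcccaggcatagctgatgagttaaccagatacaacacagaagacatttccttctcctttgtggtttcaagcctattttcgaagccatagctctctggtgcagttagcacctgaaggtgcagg
The second set is shown because these chymases were found almost only in the members with Mcpt1 or Mcpt2, which for Mcpt1 the division itself fixed.
Mcpt1 (chr14:56017714-56018013, plus strand): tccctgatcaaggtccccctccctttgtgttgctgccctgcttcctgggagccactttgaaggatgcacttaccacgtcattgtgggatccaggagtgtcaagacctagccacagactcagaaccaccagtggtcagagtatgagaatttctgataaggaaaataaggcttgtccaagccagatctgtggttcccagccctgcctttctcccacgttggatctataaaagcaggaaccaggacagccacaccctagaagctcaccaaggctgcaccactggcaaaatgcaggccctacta
Mcpt4 (chr14:56062261-56062560, minus strand): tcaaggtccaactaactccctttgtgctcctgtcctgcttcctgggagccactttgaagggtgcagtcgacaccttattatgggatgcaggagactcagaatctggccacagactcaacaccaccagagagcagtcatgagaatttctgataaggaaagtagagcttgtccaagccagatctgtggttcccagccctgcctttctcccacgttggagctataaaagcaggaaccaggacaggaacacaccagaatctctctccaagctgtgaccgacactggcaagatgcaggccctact
Cma1 (chr14:55944626-55944925, minus strand): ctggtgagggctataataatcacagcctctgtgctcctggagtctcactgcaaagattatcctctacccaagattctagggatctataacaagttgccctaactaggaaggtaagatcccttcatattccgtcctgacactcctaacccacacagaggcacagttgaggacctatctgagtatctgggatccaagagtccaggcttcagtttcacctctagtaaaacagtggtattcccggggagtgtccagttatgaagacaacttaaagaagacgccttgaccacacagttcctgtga
AGATAA occurred once in the Cpa3 window, 3 times in the Ms4a2 window and once in the Fcer1a window, and these letters were not found in the 3 chymase windows. TGATAA, another form of the motif, stands unmarked in the Mcpt1 and Mcpt4 windows. The lack of AGATAA there is thus not the lack of a GATA site. Over all 22 windows of the 18 genes, 6 held AGATAA and 2 held CATGTG. The motif did not follow the division of the members: it was not found for Gata2, Hdc, Gzmb and Mcpt8, which both kinds carried, and was found in a window of Tpsg1, which only the members with Mcpt1 or Mcpt2 carried. A match of letters is a description and not evidence of binding.

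The share of retained cells that were members was 0.0740%, 0.0835%, 0.121% and 0.235% in tumors 1 to 4 of mouse C, 0.0624%, 0.0563%, 0.0483% and 0.0761% in tumors 5 to 8 of mouse A, and 0.0546% and 0.0135% in tumors 9 and 10 of mouse B. In the mucosa it was 0.0386% in mouse C (2 of 5188 cells) and 0.0219% in mouse B (2 of 9149 cells). In the mucosa of mouse A there were 0 of 10684 cells, which allows a share of up to 0.0281% by the limit of 3 counts, or 0.0345% by the exact 95% binomial interval. Tumor 4 stood highest, with 23 members of 9782 cells (exact 95% binomial interval 0.149% to 0.353%), and tumor 10 held a single member. Such intervals cover counting error only.

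**Figure D2:**
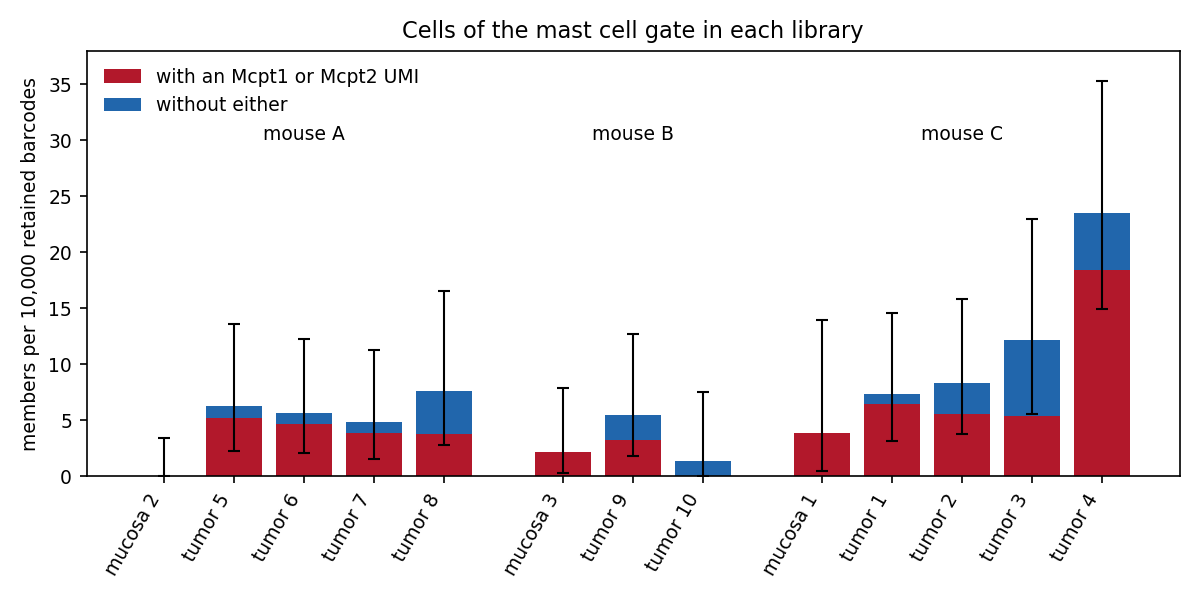
Members per 10000 retained barcodes (vertical axis) in each of the 13 libraries, grouped by mouse, divided into members with Mcpt1 or Mcpt2 (red) and without either (blue). Black bars are exact 95% binomial intervals of the total, which overlap for most libraries, and tumor 4 of mouse C is the tallest.

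Of the 10 tumors, 9 had a larger member share of all retained cells than the mucosa of their own mouse, but the difference did not pass its test. The mean over mice was 0.0744% ± 0.0487 (SD, n = 3 mice) in tumors and 0.0201% ± 0.0193 in mucosa, a difference of 0.0543 percentage points ± 0.0393 (SD over mice; exact two-sided permutation p = 0.107 over 75 arrangements, smallest possible p 0.0133). Without tumor 4 the difference was 0.04245 points with an exact permutation p of 0.0333, so this library decides the side of the threshold. Cells with a UMI of the leukocyte gene Ptprc numbered 1409 to 2203 per mucosa library, of 5188 to 10684 retained. In tumors they numbered 4274 to 7454, of 7417 to 10817. A larger share of all cells is thus not in itself a larger share of leukocytes. Between mice, the shares of the tumors gave F = 2.98 (exact permutation p = 0.0483 over 3150 arrangements), with tumor means of 0.0608%, 0.0340% and 0.129% in mice A, B and C. Leaving out single tumors moved that p between 0.0151 and 0.137.

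Both kinds of member were spread over the libraries. The 59 with Mcpt1 or Mcpt2 came from both mucosa samples that had any member (4 cells) and from 9 of the 10 tumors, 18 of them from tumor 4. The 23 without came from tumors alone and were present in all 10, with 1 to 5 cells per tumor. They made up 12.5% (tumor 1) to 55.6% (tumor 3) of the members of tumors 1 to 9 and were the single member of tumor 10. Members without Mcpt1 and Mcpt2 had fewer UMIs, with a median of 3119 against 6659, which bears on every detection rate given for them.

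The chymase genes Mcpt1 and Mcpt2 gave the most abundant messages in the summed UMIs of the members. Mcpt1 gave 39375 UMIs in 58 cells and Mcpt2 35429 UMIs in 57 cells, more than any other gene. Together they were 16.0% of all UMIs of the 59 cells, and from 0.554% to 39.6% of the UMIs of single cells (median 9.97%). Both genes were present in 56 cells. The longest identical run in the last 500 bases of their transcripts is 24 bases, and the runs between Mcpt1, Mcpt2 and Mcpt4 are at most 27 bases.

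The chymases known from connective tissue mast cells lay in the same cells at lower levels. Mcpt4 had 2328 UMIs in 42 of the 59 members, Cma1 1673 UMIs in 40 and the tryptase Tpsb2 1696 UMIs in 41, and 28 members had all 3 genes. In 55 of the 59 at least 1 of the 3 was present, and in 2 members the 3 together exceeded Mcpt1 and Mcpt2. Within the members, the mucosal and connective tissue protease genes thus did not mark separate cells. The rule required Cpa3, itself named above for connective tissue mast cells, so cells with Mcpt1 or Mcpt2 and little Cpa3 could not enter. Outside the members, 11 tumor cells and 3 mucosa cells had at least 5 UMIs of Mcpt1 and Mcpt2. Whether the 2 sets of proteases part in cells beyond the rule was not tested. The tryptase Tpsab1 was present in 24 of the 59, Tpsg1 in 24 and Mcpt9 in 12. Among the 23 other members, Mcpt4, Tpsb2, Tpsab1, Tpsg1 and Mcpt9 had no UMI and Cma1 had 5 UMIs in 3 cells. The absence of Mcpt1 and Mcpt2 there was fixed by the division itself. Against a floor of 3 UMIs over those 23 cells, Mcpt4 was at least 146-fold and Tpsb2 at least 106-fold higher in CPM in the 59. The receptors Mrgprb1 and Mrgprb2, the latter known for the response of connective tissue mast cells to peptides, had 11 and 3 UMIs in all.

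**Figure D3:**
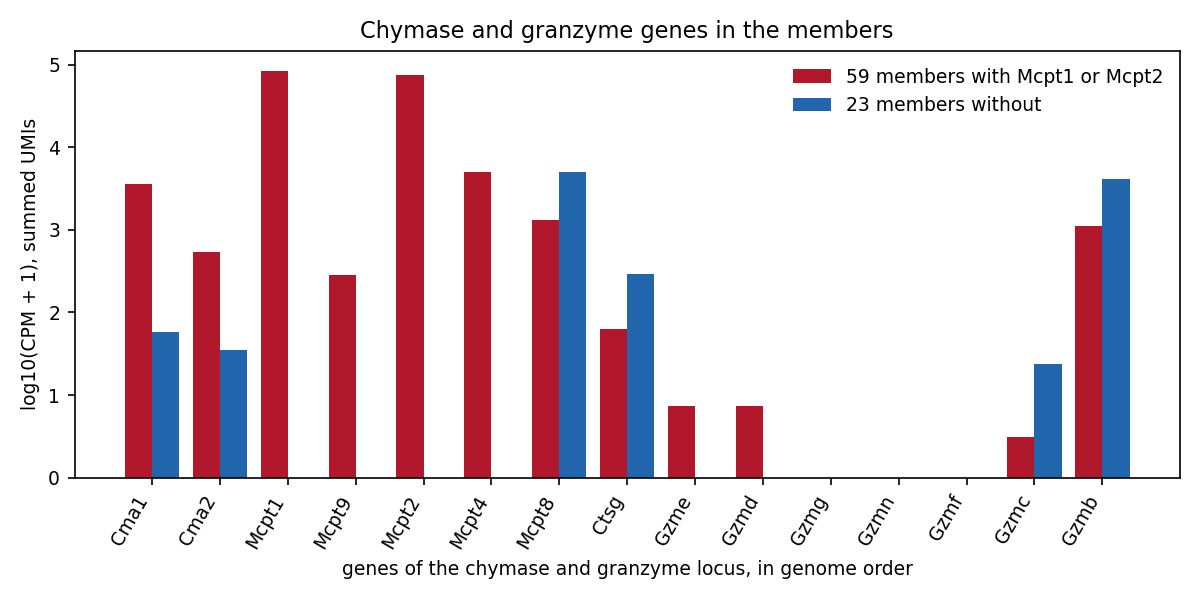
Summed UMIs of the 15 protein-coding genes from Cma1 to Gzmb on chromosome 14, as log10(CPM + 1) (vertical axis), in genome order (horizontal axis). Bars are the pooled sums of the 59 members with Mcpt1 or Mcpt2 (red) and of the 23 without (blue). Blue has no bar beside red at Mcpt1, Mcpt9, Mcpt2, Mcpt4, Gzme and Gzmd but exceeds red at Mcpt8, Ctsg, Gzmc and Gzmb.

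These proteases lie in 1 cluster of 15 protein-coding genes over 320.8 kb of chromosome 14 (GRCm38, GENCODE vM21), from Cma1 (55941451 to 55944675) through Mcpt1 (56017971 to 56020384), Mcpt2 (56042041 to 56044642), Mcpt4 (56059629 to 56062313) and Mcpt8 (56082166 to 56085273) to Gzmb (56258838 to 56262260). In the pooled sums the order of the kinds of member was not the same along the cluster. From Cma1 to Mcpt4 every gene was higher in the 59 members. At Mcpt8, the granzyme-like protease known from basophils, the level was 1304 CPM in the 59 and 5009 CPM in the 23, where 226 and 107 of the 441 UMIs lay in 2 cells and the median was 3. Ctsg, a protease of myeloid granules, stood at 61.9 CPM (29 UMIs in 8 cells) and 295.3 CPM, but the latter came from 26 UMIs in 2 cells. Gzmb, the cytotoxic granule protease, was at 1116 and 4157 CPM in the same order, the latter mostly from the 6 cells with Kit described below. Of the granzyme genes between Ctsg and Gzmb, Gzmg, Gzmn and Gzmf had no UMI in any member. Gzme and Gzmd had 3 UMIs each in the 59 and 0 in the 23, and Gzmc had 1 and 2, too few to compare.

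Mcpt8 was more often detected in the 23 but not restricted to them. It was present in 20 of the 59 and in 21 of the 23, and 6 of the 59 and 3 of the 23 had at least 40 UMIs. The highest values were 226 UMIs in a member of tumor 9 without Mcpt1 and Mcpt2, and 111 UMIs in a member of tumor 4 that also had 2663 UMIs of Mcpt1 and 3333 of Mcpt2. Prss34, the other basophil protease, was found in 1 member only, a cell of tumor 5 with 101 UMIs, together with 107 UMIs of Mcpt8 and no Kit. In the neutrophils of the tumors, which should lack these genes, Mcpt8 was present in 0.0234% of 25625 cells with a median depth of 2884 UMIs, and Mcpt1 or Mcpt2 in 0.956%. In the tumor members the corresponding shares were 51.3% and 70.5% at a median of 5013.5 UMIs.

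The 23 members without Mcpt1 and Mcpt2 fell apart further by Kit. In the 17 without a Kit UMI, Ccl4, a chemokine that draws monocytes and lymphocytes, ranged from 4 to 141 UMIs (median 69), and 16 of them had at least 20. Each of these 17 also had Ccl3, Ccl9 and Hdc, and 16 had Ccl6. Mcpt8 was present in 15 of the 17, with a median of 2 UMIs, and Prss34 in 1. Hdc, Mcpt8 and the lack of Kit, by which they were split off, are traits given above for basophils. The shares and sums of members count these 17 cells, and whether they are basophils or mast cells was not tested. In the 6 with Kit, Ccl4 ranged from 1 to 22 UMIs (median 4) and Ccl6 was at 0. Those 6 had 35 to 66 Gzmb UMIs each (median 48), where the 17 had 0 to 33 (median 1). The 6 came from 4 tumors and the 17 from 9, so neither pattern rests on 1 library.

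**Figure D4:**
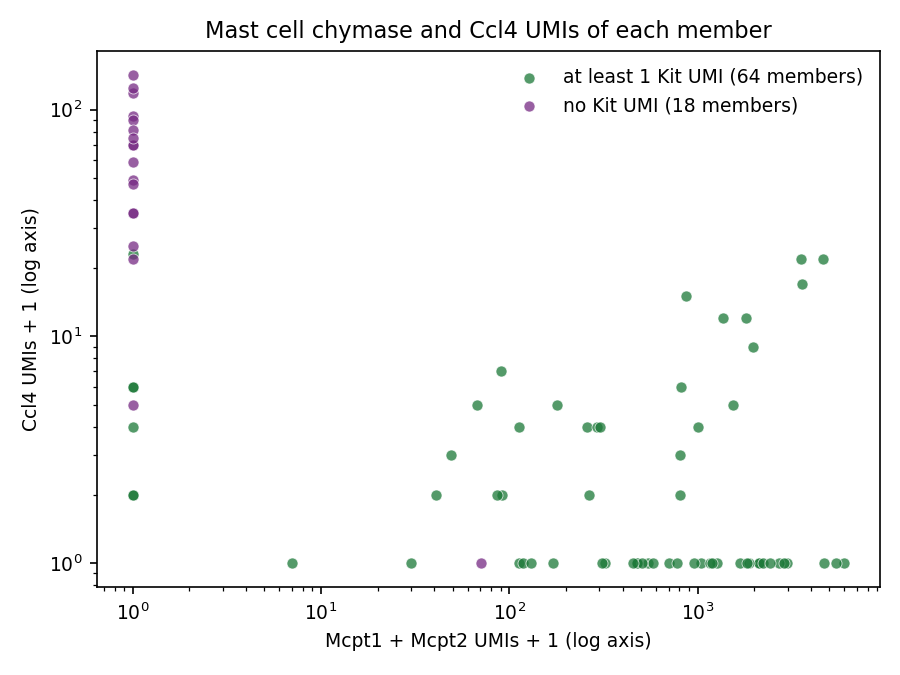
Mcpt1 and Mcpt2 UMIs (horizontal log axis) and Ccl4 UMIs (vertical log axis), each plus 1, of the 82 members, colored by whether the cell had a Kit UMI (64 with, 18 without). Cells with many Ccl4 UMIs line the left edge, where Mcpt1 and Mcpt2 are at 0.

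Chemokines differed widely between the kinds of member. Pooled, Ccl4 reached 13186 CPM in the 23 and 318 CPM in the 59, Ccl3 4929 and 85.3 CPM, Ccl6 2158 and 14.9 CPM, and Ccl9 1204 and 4.27 CPM. The 59 members had instead the monocyte attractants Ccl2 (1233 against 488 CPM) and Ccl7 (279.5 CPM, no UMI in the 23), and Ccl1 (399 against 11.4 CPM). Hdc was at 2079 CPM in the 23 and 363 CPM in the 59, and the growth factor Hgf was present in 14 of the 23 and in none of the 59. The cytokine Osm was present in 15 of the 23 and 6 of the 59, and Cebpa, a transcription factor of myeloid precursors, in 8 of the 23 and none of the 59. Cxcr4, the receptor for Cxcl12, was present in 12 of the 23 and 1 of the 59. Most of the 15 listed immediate early and stress genes, which dissociation can induce, had a higher level in the 23. Among them were Dusp1 (943 against 145 CPM), Fosb (1386 against 267 CPM) and Egr1 (2374 against 695.5 CPM). Zfp36, Fos, Nfkbia, Ier2, Junb, Jund, Ier3 and Jun were also higher there, with CPM ratios from 1.57 (Jun) to 4.16 (Zfp36). Only Atf3 (0 against 51.2 CPM), Hspa1a (22.7 against 100.3 CPM) and Hsp90ab1 (1624 against 1969 CPM) were lower in the 23. Mcpt1 and Mcpt2 took 16.0% of the UMIs of the 59 and none of the 23. This by itself sets the CPM of every other gene higher in the 23. Small differences, such as that of Hspa1b (79.5 against 72.5 CPM), therefore cannot be read. The part of the listed genes in the chemokine levels was not tested. In the comparisons described below, 8 of 14 tested genes of that list were higher and 2 lower than in macrophages (13.2% and 23.5% of all genes), 1 of 13 higher and 4 lower than in neutrophils (26.3% and 35.4%), and 3 of 15 higher and 0 lower than in ILC (9.9% and 10.8%).

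Genes that marked the 59 beyond the proteases included Tph1, which makes serotonin (1976 CPM against 11.4 CPM), and Ly6a (1259 against 22.7 CPM). Itgae, the integrin chain that binds E-cadherin on epithelium, was present in 23 of the 59 and 1 of the 23, and the aryl hydrocarbon receptor gene Ahr in 33 and 1. The TGF-beta receptor gene Tgfbr1 was present in 30 of the 59 and in none of the 23, although at 48 UMIs its floor allows a ratio of only at least 3.01. Mki67, expressed in dividing cells, was present in 8 of the 59 and none of the 23, but its floor allows a ratio of only at least 3.88. Other genes of proliferation went both ways. Top2a, Cenpa and Birc5 had less CPM in the 23. Mcm6 (102 against 19.2 CPM), Mcm5 (68.2 against 17.1 CPM) and Pcna (238.5 against 113 CPM) had more there. Mki67 alone thus does not place dividing cells in 1 kind of member.

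The IgE receptor chains, Gata2 and Slc18a2 were found in both kinds of member at more similar levels than Tph1, Hdc and Gzmb above. This is not a contrast of receptor and granule genes, since Slc18a2 is a granule gene and others of that list were similar too. In the 23 and the 59, Hs3st1 was at 363.5 and 324 CPM, Ctsd at 307 and 369 CPM, and Srgn at 6781 and 3862 CPM. Cd63 was lower in the 23 (1942 and 5016 CPM). Fcer1a, the IgE-binding chain, was present in 53 of the 59 (1483 CPM) and 19 of the 23 (875 CPM), and Fcer1g in 57 and 23. Gata2, the transcription factor that marks the mast cell and basophil lineages, was present in 44 (448 CPM) and 17 (398 CPM). The vesicular monoamine transporter Slc18a2, which loads histamine and serotonin into granules, was present in 35 and 15. The IL-33 receptor Il1rl1 was at 452 CPM in the 59 and 182 CPM in the 23.

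To see which genes set the members apart from other leukocytes, UMIs were summed per tumor and compared with C1q macrophages (379 to 1209 cells in each of the 10 tumors), neutrophils (1424 to 3694) and group 2 and 3 innate lymphoid cells (ILC, 11 to 17), each defined by its own gate. The 9 tumors with at least 5 members entered, since only 1 had the 10 members first planned, and the deeper sums were thinned to the depth of the member sum of the same tumor. Genes were called in edgeR at an adjusted p under 0.05 and at least 2-fold. The sums hold both kinds of member.

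Against macrophages 137 of 1035 genes (13.2%) were higher and 243 (23.5%) lower in the members, against neutrophils 273 of 1039 (26.3%) were higher and 368 (35.4%) lower, and against ILC 106 of 1071 (9.9%) were higher and 116 (10.8%) lower. Of 787 genes tested in all 3 comparisons, 57 (7.24%) were higher in all 3. All of the mucosal proteases on the list (3 of 3) and all 6 of the 9 connective tissue proteases that passed the filter were among these, as were 2 of the 4 basophil genes (Mcpt8 and Cd200r3). With DESeq2 in place of edgeR, Mcpt9 and Ctsg lost their calls in all 3 comparisons and Tpsg1 against macrophages and neutrophils. A gene that passed the filter only through the member sums had to differ, so these counts are not support for the label. The same holds for part of every count of higher genes below, and no p-value is given for a higher gene whose thinned comparison sums held under 10 UMIs per tumor on average.

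Mcpt1 stood at 53590, 54727, 57996 and 105218 CPM in the member sums of tumors 1 to 4, at 81287, 47928, 36874 and 53064 CPM in tumors 5 to 8 and at 4057 CPM in tumor 9. Tumor 9 was thus far below the other 8. Of the 23169 UMIs in its member sum, 13729 came from 1 cell without Mcpt1 and Mcpt2. That cell by itself lowers the CPM of both genes there, so these values are not a trait of the tumor's other members. No comparison sum exceeded 1.41 CPM in macrophages, 5.02 CPM in neutrophils or 11.9 CPM in ILC, the last from a single UMI. Mcpt2 ran from 4791 CPM in tumor 9 to 108266 CPM in tumor 4. Fcer1a ranged from 787 to 2674 CPM (median 1285) in the member sums, with no UMI in the macrophage and ILC sums and 2 in the neutrophil sums. Its pooled level was at least 359-fold higher than in ILC, against a floor of 3 UMIs over all ILC sums. Gata2 ranged from 273 to 1143 CPM (median 475) and was at most 1.22 CPM in any neutrophil sum, 0.412 CPM in any macrophage sum and 0 in ILC. Members and comparison cells did not overlap in these genes, which passed the filter through the members and had to differ, so no p-value is given for them.

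**Figure D5:**
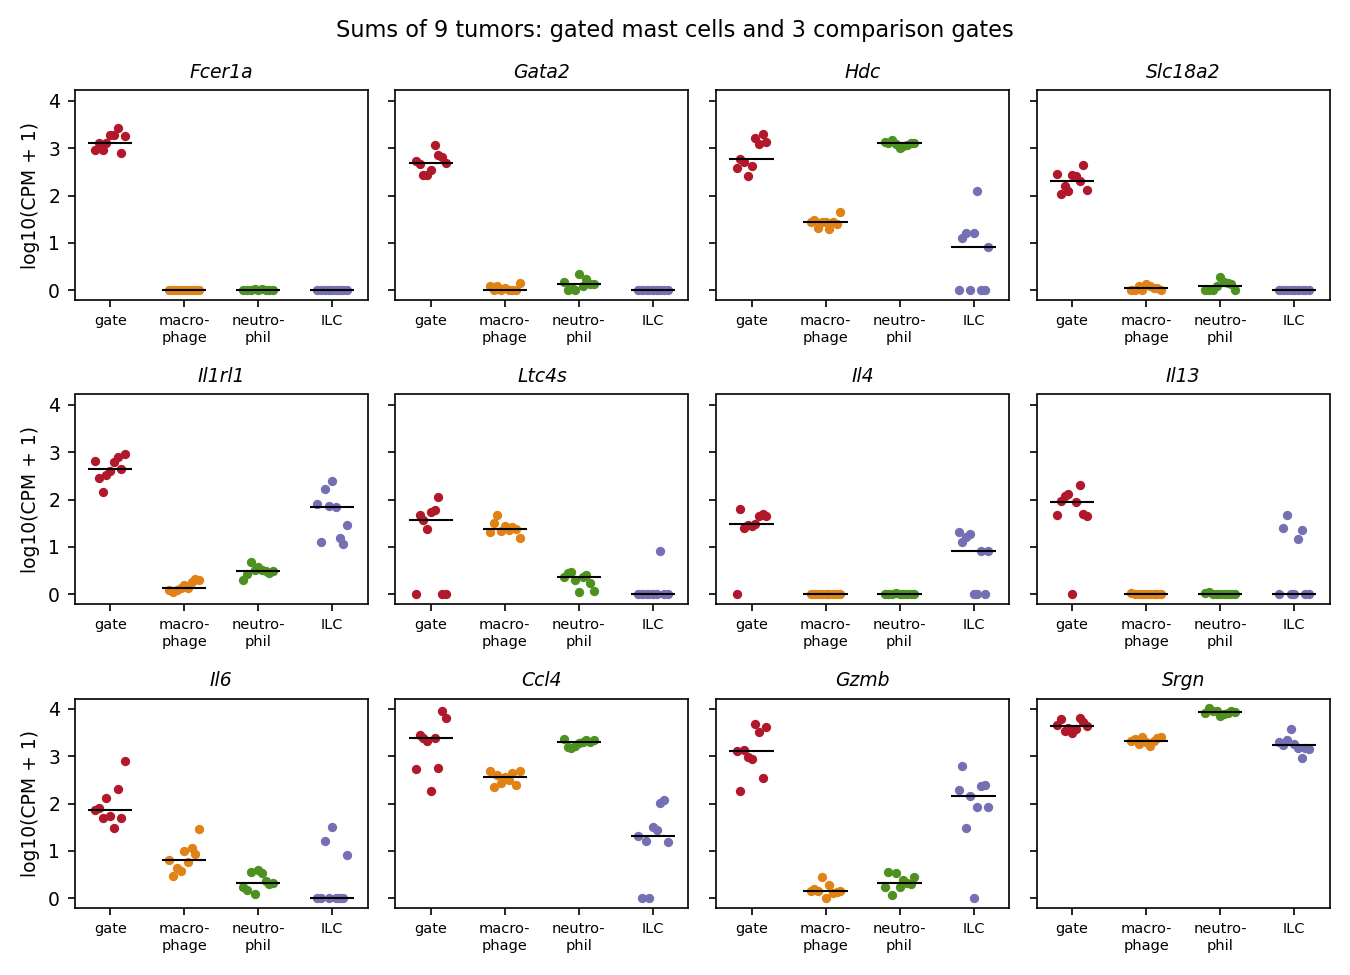
CPM of 12 genes in the sums of 9 tumors, as log10(CPM + 1) (vertical axis), for the members (red, labelled gate), C1q macrophages (orange), neutrophils (green) and group 2 and 3 ILC (violet). Each point is a tumor and each black line the median: Fcer1a, Gata2 and Slc18a2 are near 0 outside the members, while Hdc and Ccl4 overlap with neutrophils.

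Outside the mast cell proteases, and beside the basophil protease Mcpt8, the genes called higher in all 3 comparisons whose smallest change was largest were Fcer1a, Gata2, Tph1, Slc18a2, Cd200r3, Car8, Cyp11a1, Cd34, Scin and Itga2b. Cyp11a1 starts steroid synthesis in mitochondria, and its member sums averaged 538 CPM. Cd34, a sialomucin of blood stem cells and mast cells, averaged 291.5 CPM, the actin-severing Scin 409 CPM, and the integrin chain Itga2b 212 CPM. In the macrophage and neutrophil sums the same 4 genes averaged 0.0846 to 2.25 CPM, and the ILC sums held 2 or 3 UMIs of each, so their fold changes against ILC depend on the fit. Scin was at 0 in the member sum of 1 tumor.

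Among 22 granule genes, 7 of 11 tested were higher than in macrophages, 5 of 10 than in neutrophils and 7 of 9 than in ILC (13.2%, 26.3% and 9.9% of all genes tested). Lower were 3 against macrophages (Ctsd, Lamp1 and Ctsl, of lysosomes), 3 against neutrophils (Snap23, Hdc and Srgn) and 0 against ILC (23.5%, 35.4% and 10.8% of all genes). Slc18a2, Gzmb, Cd63 and Tph1 were higher in all 3. Hdc went both ways. It was higher than in macrophages (18.6 to 43.0 CPM) and ILC (at most 122.5 CPM) but lower than in neutrophils (log2 fold change -1.11 ± 0.26 SE, adjusted p = 0.00083), which held 996 to 1471 CPM against 262 to 2016 CPM in the members. These ranges overlapped, and the member sum was the higher one in 4 of the 9 tumors. The call was lost without tumor 1 or without tumor 3 (-0.67 each), without the replicate block (-0.59), with no filter (-0.91), per mouse (-0.89) and with all 10 tumors (-0.86). Srgn, the core protein of granule proteoglycan, was likewise above macrophages (1.03 ± 0.14, adjusted p = 4.2e-06) and below neutrophils (-1.28 ± 0.16, adjusted p = 9.7e-07). Both changes lay near the 2-fold limit. The first fell to 0.41 to 0.97 under 9 alternatives, among them 0.49 with only Mcpt1 or Mcpt2 members and 0.89 to 0.96 without tumor 2, 6, 7 or 8, and the second to -0.98 and -0.99 without tumor 1 or 3 and to -0.95 without the replicate block.

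For the IgE receptor pathway, 2 of 4 tested genes were higher than in macrophages, 2 of 5 than in neutrophils and 4 of 4 than in ILC (against 13.2%, 26.3% and 9.9% of all genes), with Fcer1a and the adaptor Lat2 higher in all 3. Fcer1g, the signalling chain, was lower than in macrophages (-1.20 ± 0.15, adjusted p = 1.6e-06), and the kinases Lyn and Syk were lower than in neutrophils (-1.28 ± 0.23, adjusted p = 6.5e-05, and -3.05 ± 0.42, adjusted p = 2.9e-06). Most of the 23 listed genes did not reach the filter at this depth. Il1rl1 was at 144 to 906 CPM in the member sums and higher than in macrophages (at most 1.11 CPM), neutrophils (at most 3.79 CPM) and ILC (log2 fold change 2.71 ± 0.59). In ILC, which are also known to carry this receptor, it reached 243.7 CPM, so the ranges overlapped there, and with members of at least 10 Cpa3 UMIs the call was lost (1.58). Csf2rb2, a chain of the IL-3 receptor, was higher in all 3 comparisons. Il1rl1 and Csf2rb2 are from a list of 35 receptor and homing genes. Of those tested, 6 of 11, 4 of 12 and 4 of 7 were higher than in macrophages, neutrophils and ILC (13.2%, 26.3% and 9.9% of all genes). Lower were 4 (Tlr2, Itgb1, Ccr1 and Itgb2), 5 (Cxcr2, Tlr2, Ccr1, Itgb2 and Il1rap) and 0 (23.5%, 35.4% and 10.8% of all genes).

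Of the lipid mediator genes, only Alox5, Alox5ap and Ptgs2 reached the filter. Alox5, which begins leukotriene synthesis, was higher in all 3 comparisons, at 98.4 to 472.4 CPM in the member sums. Its partner Alox5ap was higher than in macrophages (1.15 ± 0.20, adjusted p = 6.4e-05) and ILC (3.39 ± 0.50) and lower than in neutrophils (-1.33 ± 0.19, adjusted p = 4.3e-06). Ptgs2, the inducible cyclooxygenase, was lower than in neutrophils (-1.49 ± 0.49, adjusted p = 0.011) and was not called against macrophages (-0.20 ± 0.55) or ILC (1.39 ± 0.94). Of these 3 genes, 2, 1 and 2 were thus higher than in macrophages, neutrophils and ILC (13.2%, 26.3% and 9.9% of all genes). In the same order 0, 2 and 0 were lower (23.5%, 35.4% and 10.8% of all genes). With 3 genes such counts say little. Ltc4s, which forms leukotriene C4, had 19 UMIs in 13 of the 59 members and none in the 23, and was not testable.

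Of 26 cytokine genes, 11 passed the filter in each comparison and 6 were called higher in each (again against 13.2%, 26.3% and 9.9% of all genes), while 3, 3 and 1 were lower than in macrophages, neutrophils and ILC (23.5%, 35.4% and 10.8% of all genes). Ccl2, Ccl3 and Ccl7 were higher in all 3. Ccl2 ranged from 294.5 to 2843 CPM in the member sums and was above neutrophils (20.1 to 42.0 CPM) and macrophages (95.2 to 262.2 CPM). Ccl4 was not distinguishable from neutrophils (-0.23 ± 0.40, adjusted p = 0.60), and its member sums ran from 187 to 9196 CPM, on both sides of the 1459 to 2345 CPM of the neutrophil sums. With only members with Mcpt1 or Mcpt2 the change was -3.08 (adjusted p = 3.8e-08). When the sums were limited to members with Mcpt1 or Mcpt2, the change of Ccl3 against macrophages was -1.25 (adjusted p = 0.036). Against neutrophils it was -1.84 (adjusted p = 0.0019). The higher Ccl3 of the full sums thus rests on the other members. Of these, the 17 without Kit had a median of 28 Ccl3 UMIs and the 6 with Kit at most 1. The neutrophil call of Ccl3 was also lost without tumor 4 (0.93). Il1b and Cxcl2 were lower than in macrophages and neutrophils.

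The cytokines classically ascribed to mast cells and basophils were sparse. Il13 had 56 UMIs in 20 members (11 of the 59 and 9 of the 23), Il4 19 UMIs in 16 members (9 and 7) and Il6 69 UMIs in 25 members (14 and 11). Il3, Il5, Il9 and Csf2 had no UMI in any of the 82 members, which at 556749 UMIs in all means only that they were not detected at this depth. Tnf had 106 UMIs in 40 members and was higher than in macrophages (1.27 ± 0.44) and ILC (2.93 ± 0.45).

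Markers of other cells were looked up in every member. T cell markers other than the excluded Cd3e had 8 UMIs in 6 members, macrophage markers 42 UMIs in 25 and hemoglobin genes 39 UMIs in 26. Of 6 stromal and endothelial markers only Pecam1, which leukocytes also express, had any UMI (36 in 24 members). Antibody and B cell markers gave 267 UMIs in 66 members, with at most 34 in 1 member. Neutrophil markers gave 842 UMIs, of which 747 lay in a single cell of tumor 2 (S100a8 302, S100a9 343). Epithelial markers gave 189 UMIs, of which 127 lay in a single cell of tumor 3 that also had the most UMIs of any member (23047). Both cells had Mcpt1 and Mcpt2, and the part that such mixed barcodes play in the gene comparisons was not tested beyond leaving out each tumor.

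Between the 3 mice, 1 of 1047 genes differed in the member sums (0.0955%; edgeR, adjusted p under 0.05), while 104 had an unadjusted p under 0.05. It was Uap1, which makes the sugar donor for glycosylation. Uap1 stood at 70.9, 62.3, 47.9 and 62.6 CPM in tumors 1 to 4 of mouse C, at 294.5, 351.8, 404.5 and 344.3 CPM in tumors 5 to 8 of mouse A and at 259 CPM in tumor 9 of mouse B (adjusted p = 0.032). The 4 tumors of mouse C all lay below the 5 others. The call was lost when any 1 of tumors 1 to 7 was left out, and without tumor 4 or tumor 5 Mcpt1 was called in its place. The 4 mucosa members were too few for a test against tumors, and their values were within the range of the tumor members: Mcpt1 had 800 and 1529 UMIs in mouse C and 337 and 96 in mouse B, and 1 of the 4 had 104 Mcpt8 UMIs with 95 of Gzmb.

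In sums over all retained cells, 4 of 15 tested mast cell genes were higher and 2 lower in tumors; with mouse as a block 7 of 16 were higher, and without mucosa 1 it was 9 of 16. Here 36.8% of 17843 genes were called higher and 34.9% lower in tumors, so single calls say little about mast cells. Mcpt1 ranged from 0.142 to 214.2 CPM in tumors (median 27.2) and from 0.26 to 29.7 CPM in mucosa (log2 fold change 1.99 ± 1.45, edgeR adjusted p = 0.23). Of its 39865 UMIs in tumors and 3233 in mucosa, 91.4% lay in the 82 members. Fcer1a (2.65 ± 0.91) and Ms4a2 (2.98 ± 0.72) were called higher in tumors, but with 47 and 16 UMIs in mucosa they passed the filter through the tumors, and no p-value is given for them. Higher too was Gata2 (2.26 ± 0.37, adjusted p = 9.2e-05), and members held 85.3%, 58.8% and 26.1% of their UMIs. Cpa3 missed the threshold (2.60 ± 1.13) and passed it with mouse as a block and without mucosa 1, where the change was 5.09. It is a gene of the rule, and 91.3% of its UMIs lay in members. Its all-cell sums thus largely repeat the member counts and are no separate support. More cells of a type and more RNA per cell cannot be told apart in such sums. Tpsg1 fell (-4.07 ± 0.41, adjusted p = 1.2e-06), but only 0.532% of its UMIs lay in members. Kit also fell (-1.55 ± 0.24, adjusted p = 5.4e-05), with 2.04% of its UMIs in members. Hdc rose by the largest amount of these genes (8.45 ± 0.33, adjusted p = 7.7e-10), with 0.216% of its UMIs in members, and it was present in 93.2% of tumor neutrophils.

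Of 17 ligands and attractants of mast cells that were tested, 12 were higher and 2 lower in tumors, beside 36.8% and 34.9% of all genes. Several of the 12 passed the filter through the tumors, since Madcam1 had 0, Il13 2, Cxcl12 7 and Tgfb2 23 UMIs in mucosa. The count is thus not support for more ligand. Neutrophils numbered 8 to 32 per mucosa library and 1424 to 3694 per tumor, and the part of such differences in cell content was not tested. Il33, the ligand of Il1rl1, was at 4.69 to 10.2 CPM in tumors and 0.0736 to 0.202 CPM in mucosa (5.67 ± 0.37), with no overlap and 42 UMIs in mucosa. It too passed the filter through the tumors, so no p-value is given. Kitl, the ligand of Kit, was at 23.8 to 58.9 CPM in tumors and 43.1 to 51.3 CPM in mucosa (-0.21 ± 0.24, adjusted p = 0.44), and these ranges overlapped. Vcam1 and Madcam1, which bind the integrins of circulating mast cell precursors, were both higher in tumors (6.17 ± 0.57, adjusted p = 5.7e-07, for Vcam1), and Madcam1 had no UMI in mucosa. Tslp and Ccl5 were lower in tumors (-1.33 ± 0.32, adjusted p = 0.0019, and -1.62 ± 0.42, adjusted p = 0.0033).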

How the data were processed

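Single-cell 3′ libraries of 10 colon tumors and 3 mucosa samples were used. The authors deposited raw UMI counts per gene and barcode; per the submitters' processing notes these were made with Cell Ranger 6.0.0 on mm10, while the methods of the study name another version. Barcodes with at least 500 UMIs, 200 genes and under 25% mitochondrial UMIs were retained. The members and gene lists were chosen with earlier results of these data known. Counts were summed per library and cell group and tested in edgeR 4.0.16 (quasi-likelihood, TMM, low-count filter, tumor as block, Benjamini-Hochberg) under R 4.3.3, with DESeq2 1.42.0 as an alternative. C1q macrophages had at least 10 C1q UMIs, neutrophils at least 20 S100a8 and S100a9 UMIs with Csf3r, and ILC an Il7r UMI, no Cd3 UMI and a further gene criterion that is not reported here. The plan asked for 10 members per tumor, which 1 tumor had, so 5 were required. It also used the full comparison sums, which gave 159 false of 354 calls (macrophages) and 151 of 343 (neutrophils) on simulated data; thinned sums gave 0 false calls and recovered 80% and 78% of 200 genes changed 4-fold (849 and 901 genes tested), and for ILC 79% (855 genes). Named genes were the genes of the gate, the 20 with the largest smallest change over the 3 comparisons (at least 20 CPM), and members of the lists. The genes that divided the members were chosen after their values were seen.

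The difference in share between tumors and mucosa was tested by exact permutation within mice, and that between mice by exact permutation of tumors across mice. Tumors of 1 mouse are not independent animals, so p-values across libraries describe the spread between libraries. The block used the 2 sums of the same tumor, whose deviations correlated at a median of 0.19 for macrophages (0.04 to 0.42), 0.19 for neutrophils (0.05 to 0.37) and 0.02 for ILC (-0.03 to 0.22). Gene positions were taken from GENCODE vM21, in which 99.6% of the gene IDs were found.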

Additional observations from a re-analysis of the deposited data

Results flagged for a closer look

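Among 24 groups of 9 or 10 tumors tested, 5 held a value far from the others by Dixon's criterion, which chance alone meets in about 1 in 20 groups. Tumor 4 had the highest share of members (0.235%, next 0.121%) and the highest number of members with Mcpt1 or Mcpt2 per 10000 retained cells (18.4, next 6.47). In tumor 10, members without Mcpt1 and Mcpt2 were 100% of the members (next 55.6%), but this was a single cell. In tumor 9, the member sum had 9841 CPM of Mcpt8 (next 3910 CPM) and 777 CPM of the cytokine Il6 (next 202 CPM). Most of the Mcpt8 of tumor 9 came from 1 cell with 226 UMIs.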

How the results depend on the processing

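Of 1475 values of named genes under the alternatives, 1425 kept their direction and side of the threshold, 33 lost the call, 7 gained it and 10 reversed. Many named genes were picked for large changes in these same sums or were nearly absent from the comparison cells, so they had little room to move. Of the 1425, 781 came from leaving out a single library, and such fits share most of their data. The count is thus not support for the results. The genes called higher than macrophages were 137 as reported, 212 with DESeq2, 405 with no filter, 271 with tumors summed per mouse and 617 with unthinned sums. For neutrophils these counts were 273, 481, 879, 587 and 773, and for ILC 106 as reported, 250 with no filter and 165 per mouse. Without the replicate block they were 47, 140 and 40. Leaving out 1 tumor gave 119 to 135, 231 to 325 and 92 to 103. Unthinned sums also gave 2615 and 3714 lower genes, and failed the simulation. Between mice, DESeq2 called 12 genes, no filter 42, and members with at least 10 Cpa3 UMIs 2, and leaving out a tumor gave 0 to 2. The causes were not tested.

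Ccl4 against macrophages was -0.08 with at least 10 Cpa3 UMIs, and Ccl3 -1.25 with only Mcpt1 or Mcpt2 members. Against neutrophils Ccl3 was -0.90 and -1.84 under the same settings, while Ccl4 (-0.23) was 0.56 without the replicate block, 0.28 per mouse, 0.15 with all 10 tumors, and, leaving out 1 tumor, -0.44 to 0.26 (0.26, 0.09 and 0.04 without tumors 1, 5 and 7). Under DESeq2, Mcpt9 (1.89 to 2.26) and Ctsg (at most 3.42) lost their calls in all 3 comparisons and Tpsg1 against macrophages (4.91) and neutrophils (4.15). The difference in share was 0.0365 to 0.0754 points leaving out 1 library (0.04245 without tumor 4, exact permutation p = 0.0333), and the F between mice 1.89 to 5.16. In all-cell sums, 16 listed genes were higher in tumors, 19 with mouse as replicate block and 15 to 22 leaving out a library; of these, mast cell genes were 4, 7 and 3 to 9. A test of members between tumor and mucosa was not run, for want of mucosa members. Depth limits these comparisons, since only 1035 to 1071 genes passed the filter.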
